A study of Mus musculus with 6 samples.

Results

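Rgcc-type cells were endothelial cells (ECs) of mouse back skin in which more of the genes *Rgcc*, *Adamts4*, *Stc1*, *Il6* and *Noct* were found than of the 5 marker genes of any other vessel class. They numbered 2443 of the 12093 cells that had at least 1 *Pecam1* transcript and no *Ptprc* transcript, out of 20941 cells that passed quality filters and 27418 barcodes in all. Each cell was scored by how many of 5 genes it held in each of 6 sets, for arteries, veins, Kdr-type capillaries, Rgcc-type capillaries, collecting lymphatic vessels and lymphatic capillaries. A cell was a member when its Rgcc-type score was at least 2 and above its score in every other set. The members were thus selected on the measured transcripts of these 30 set genes, *Pecam1* and *Ptprc*, so the levels of these set genes, and every comparison of levels between the members and other cell classes, are given as descriptions without tests. Tests were run between groups of mice, and on whether the response to a condition differed between the members and other vessel cells.

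Single-cell RNA-seq was done on tdTomato+ cells sorted from dorsal skin, with 1 library per mouse and 2 mice per group. The telogen and anagen mice carried tdTomato, Cdh5-CreERT2 and Krt14-H2BGFP on a mixed C57BL/6 and CD1 background and were taken at postnatal day (PD) 20, when hair follicles rest, or at PD 32, when they grow. The Alk1 knockout (KO) mice carried Alk1 flox/flox, tdTomato and Cdh5-CreERT2 on C57BL/6, without Krt14-H2BGFP, and were taken in telogen at PD 25. All 6 mice received tamoxifen, which switches on the Cre recombinase, at 200 µg per g on PD 17, so recombination could occur in cells that used the *Cdh5* (VE-cadherin) promoter. The genotype field of both KO samples reads wild type, while their titles and descriptions name the Alk1 KO, and the titles were followed. Genotype therefore could not be told apart from strain, age or the Krt14 allele. Sex differed too, since *Xist* was at 960.4 CPM (counts scaled to the same total in each library) in telogen mouse 1 and at 655 and 725 CPM in the KO mice and at 0 in the other 3, which instead held 107 to 138 CPM of the Y-linked gene *Ddx3y*.

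The members numbered 205 and 186 cells in the telogen mice, 709 and 1089 in the anagen mice and 109 and 145 in the KO mice. Their summed transcripts (unique molecular identifiers, UMIs) were 1809650 and 1460841 in telogen, 6740836 and 7021518 in anagen, and 832196 and 992041 in the KO. A typical member was read at a similar depth everywhere, with median UMIs per cell of 5882 to 8583 over the 6 libraries. The anagen sums were therefore the most precise and the KO sums the least. No member barcode was shared between libraries.

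Capillary ECs line the finest vessels and exchange gas, nutrients and fatty acids with the tissue around them. In skin, the vessel bed is remodelled as hair follicles move from rest to growth. ECs can also respond to inflammatory signals through NF-kB, a family of transcription factors held in the cytoplasm by inhibitor proteins such as the product of *Nfkbia*, and NF-kB drives both cytokine genes and the genes of its own inhibitors. Alk1, the product of *Acvrl1*, is an EC receptor for ligands of the BMP family that signals through Smad proteins and restrains vessel sprouting.

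The 5 genes that define the class set members apart to unequal degrees. *Rgcc*, a regulator of the cell cycle, was at 994 and 933 CPM in the members of the telogen mice, 1225 and 864 in anagen and 1132 and 1079.6 in the KO. In the cells classed as Kdr-type capillary by the same rule it was at 1303 and 1565, 1362 and 862, and 594 and 382 CPM. So in wild-type mice *Rgcc* alone did not distinguish the members from Kdr-type capillaries, in which it was higher in 3 of 4 mice, whereas in both KO mice it was higher in the members. In veins it was at 58.7 to 195 CPM and in arteries at 53 to 287 CPM, below the members in every mouse.

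*Il6*, the cytokine interleukin-6, was at 1512 and 1127 CPM in telogen members, 1914 and 2649.7 in anagen and 1847 and 979 in the KO, against 11.3 to 229 CPM in Kdr-type capillaries. Venous cells held 847 to 1306 CPM of it. *Adamts4*, a protease that cuts matrix proteoglycans, was at 709 to 1784 CPM in the members and at 74 to 185 CPM in Kdr-type capillaries. *Stc1*, a secreted glycoprotein, was at 353 to 548 CPM against 34.4 to 114 CPM, and *Noct*, nocturnin, a gene of the circadian system, at 432 to 726 CPM against 51.3 to 113 CPM. All 4 genes were above Kdr-type capillaries in each of the 6 mice with no overlap, and *Adamts4*, *Stc1* and *Noct* were also above veins and arteries.

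**Figure D1:**
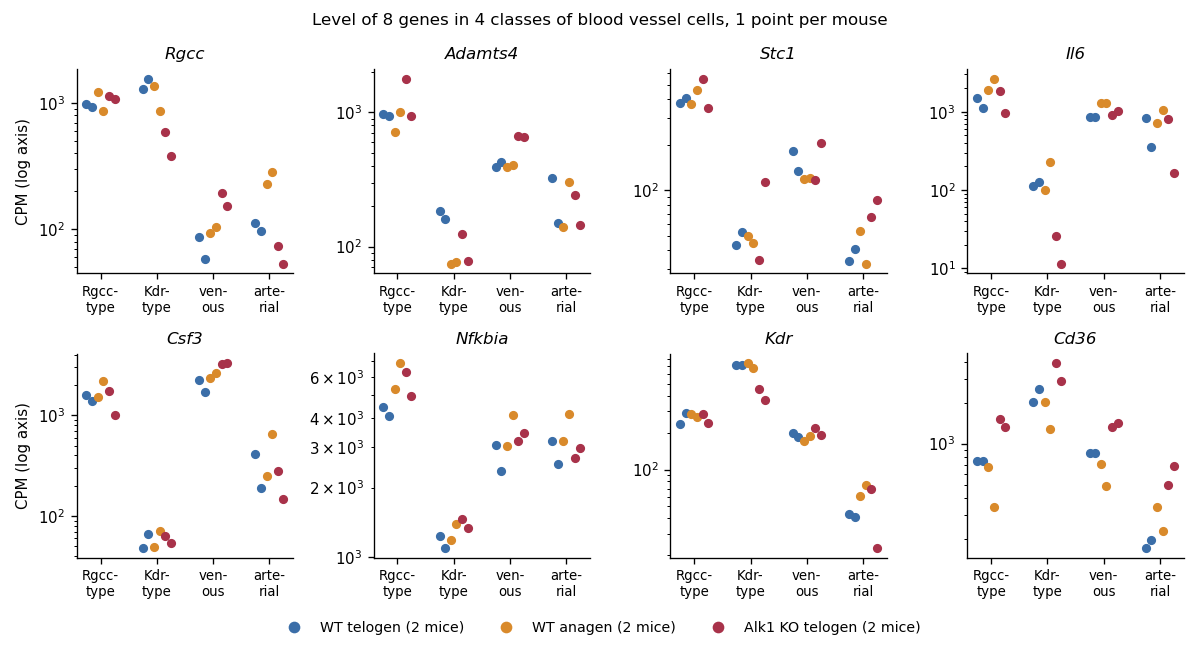
Level of 8 genes in CPM (log axis) in Rgcc-type, Kdr-type, venous and arterial cells, with 1 point per mouse. *Rgcc* overlapped between the Rgcc-type and Kdr-type cells, while *Il6* and *Csf3* stood well above the Kdr-type cells in every mouse, and *Kdr* and *Cd36* stood below them.

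The members were endothelial by the rule, which required *Pecam1*. *Cdh5*, the EC cadherin, was at 705 to 905 CPM in the members and 717 to 1178 CPM in Kdr-type capillaries, so the ranges overlapped. Of 13 pan-endothelial genes, however, 1 was above and 6 below the Kdr-type level in all 6 mice, 4 were above and 7 below the venous level, and 2 were above and 7 below the arterial level. Of all genes with at least 50 CPM in either class, 25.7% were above and 34.0046% below Kdr-type cells, 30.3 and 26.7% veins, and 24.7 and 31.5% arteries, so the 4 above veins were at about the share of all genes. The 13 genes had median log2 ratios of -0.21, -0.36 and -0.57 (marker-free members, described below, -0.07, -0.21 and -0.41). *Egfl7*, *Esam* and the angiopoietin receptor genes *Tek* and *Tie1* were below all 3 classes, but in marker-free members this held only for *Tie1*. *Prox1*, which marks lymphatic ECs, was at 6.69 to 31.2 CPM in the members against 385 to 620.1 CPM in lymphatic capillary cells. The capillary label did not hold evenly. The rule left room for genes of other sets, and at least 1 gene of the Kdr-type set was present in 80.1 to 92.9% of the members in each library, a share that the rule itself bears on and that is no support for the label. *Kdr* itself, the main VEGF receptor, was at 238 to 292 CPM in the members and 369 to 748 CPM in Kdr-type cells. *Cd36*, a fatty acid transporter, was at 739 and 749.6 CPM in telogen members, 672 and 341 in anagen and 1510.5 and 1326 in the KO. In Kdr-type cells it was at 2030.0 and 2514, 2022 and 1288, and 3930.0 and 2908 CPM, above the members in every mouse.

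Gene lists were counted in 2 ways. Among genes with any count, 7.21% were above and 18.7% below Kdr-type cells in all 6 mice, 9.17 and 11.8% veins, and 7.92 and 14.3% arteries, and among genes with at least 50 CPM in either class the shares were those given above. A gene that reached 50 CPM in a single class had to differ toward it, so whole lists are given first. All 11 capillary genes reached 50 CPM in Kdr-type cells, and 10 were below that level in all 6 mice, with a median log2 ratio of -1.29. Against arteries, 6 of 11 were higher and 0 lower, and against veins 4 were higher and 4 lower, with a median of 0.476 that was -0.15 over the 9 genes with at least 50 CPM, so by this list the members were not set above veins. Of 14 arterial genes, 13 were below the arterial level, with a median of -1.91, and of 11 venous genes 9 were below the venous level, with a median of -1.72. Against Kdr-type cells, 6 of the 14 arterial genes were above and 2 below, and 4 of the 11 venous genes were above and 5 below, among the latter *Aplnr*, *Emcn* and *Plvap*. At least 1 gene of the venous set was still found in 44.8 to 83.5% of the members in each library, and at least 1 of the arterial set in 38.5 to 54.1%.

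The boundary of the class was not sharp. Of the members, 1198 led the next set by a single gene, and 1235 further cells tied with another set and were left out. The cells just inside held 1037 CPM of *Rgcc* and 1670 of *Il6* when summed over all mice, and those just outside held 965 and 1282 CPM. *Csf3* was at 1578 CPM inside and 1998 CPM outside. At the lower end, 144 members with a score of 2 held 454 CPM of *Rgcc*, and 53 cells with a score of 1 and 0 in the other sets held 52.9 CPM. All 5 genes were found together in 42.0 and 37.6% of the members in telogen, 45.1 and 38.6% in anagen and 21.1 and 19.3% in the KO.

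To compare cells at one depth, each was thinned to 1500 UMIs. *Rgcc* was then found in 55.4 and 51.7% of telogen members, 61.4 and 51.2% of anagen members and 55.4 and 54.1% of KO members. Immune cells from the same libraries (at least 1 *Ptprc* transcript) held it in 8.51 to 22.3% at that depth. *Cdh5* was found in 0 to 6.42% of them, so their *Rgcc* share is not given as a background level. Without thinning the members' shares were 79.6 to 88.3%, at median depths of 5882 to 8583 UMIs against 8588 to 14212.5 UMIs in the immune cells. *Il6* was found in 59.9 and 52.2%, 64.9 and 77.5%, and 55.4 and 36.1% of the thinned members and in 6.11 to 25.2% of the immune cells. Both genes chose the members, so their larger share there follows from the rule.

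Beyond the genes of the rule, genes of NF-kB signalling were often higher in the members than in Kdr-type, venous and arterial cells. The rule chose the members on *Il6*, itself a cytokine gene, so genes expressed together with it could be higher by selection. The part of the rule in these levels was not tested. Collecting lymphatic cells averaged more *Cxcl2* (747 against 508 CPM) and *Ccl2* (401 against 231 CPM) than the members. They averaged less *Nfkbia*, *Tnfaip3*, *Cxcl1*, *Csf3*, *Icam1* and *Socs3*. Of 38 NF-kB and cytokine genes, 23 (60.5%) were above the Kdr-type level in all 6 mice and 0 below, with a median log2 ratio of 1.40, where 7.21% of all genes with a count were above. Of the 22 with at least 50 CPM in either class 19 were above, but 11 of these reached 50 CPM in the members alone and so had to be higher. Of the 11 that reached it in Kdr-type cells themselves, 8 were above, where 20.4% of all 3144 such genes were, with a median of 1.303. Of the whole list, 18 (47.4%) were above and 3 below veins, where 9.17% of all genes were above, and 19 were above and 1 below arteries, where 7.92% were. Of the genes that reached 50 CPM in veins 12 of 19 were above, and of those that reached it in arteries 10 of 18, where 24.7 and 19.5% of all such genes were. *Vcam1*, an adhesion molecule for leukocytes, was below both the venous and the arterial level in every mouse, and *Csf3* was below the venous level. Once the members with markers of other cell types, described below, were left out, neither gene was below the venous level in all 6 mice, while *Vcam1* was still below the arterial level in each.

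*Nfkbia*, the inhibitor that NF-kB induces, was at 4465 and 4070.3 CPM in the members of the telogen mice, 5338 and 6909 in anagen and 6328 and 4951 in the KO. In Kdr-type capillaries it was at 1094 to 1466 CPM, so these ranges lay far apart. Veins held 2362 to 4116 CPM and arteries 2515 to 4158 CPM of it, ranges that reached into that of the members, although within each mouse the members were higher than both. *Tnfaip3*, which removes ubiquitin from the same pathway and so damps it, was at 133 to 219 CPM against 20.3 to 44.8 CPM. *Cxcl1*, a chemokine that draws neutrophils, was at 1441 and 1708 CPM in telogen members, 1007 and 792 in anagen and 1032 and 912 in the KO, against 46.5 to 461 CPM in Kdr-type cells. Veins held 336 to 853 CPM of it and arteries 395 to 975 CPM, and in anagen mouse 2 the arteries were above the members. *Csf3*, the granulocyte growth factor G-CSF, was the gene with the largest smallest ratio over Kdr-type cells, at 997 to 2181 CPM against 48 to 71.1 CPM, a ratio of 18.4 to 32.9. Veins held 1702 to 3323 CPM of it, more than all members in each mouse.

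**Figure D2:**
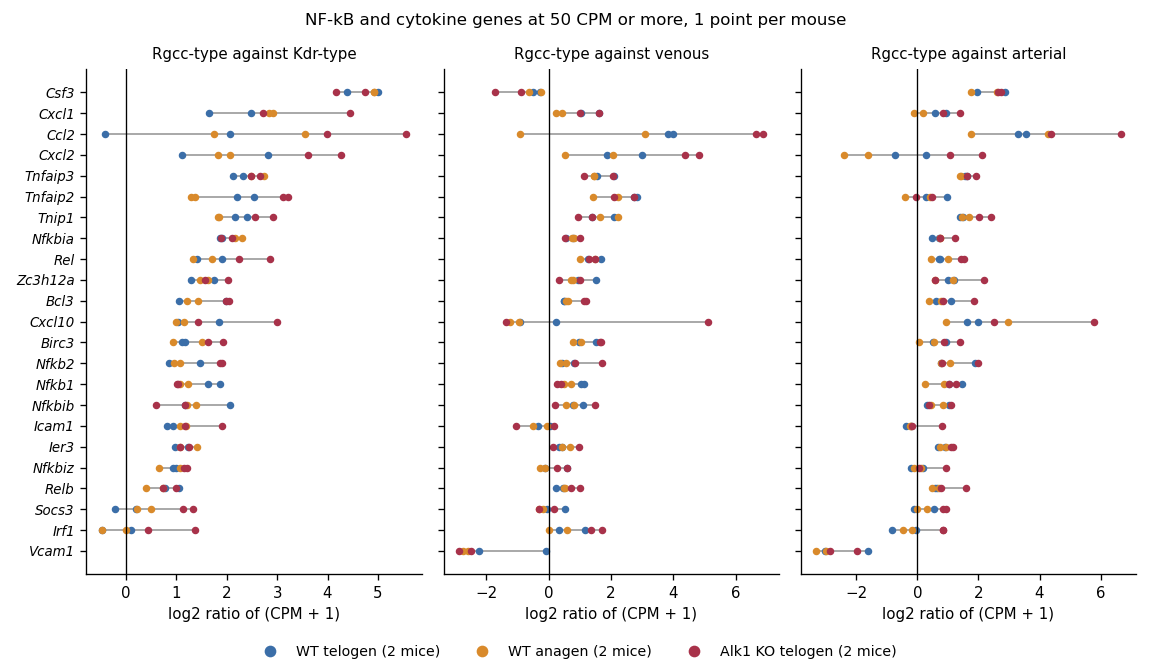
Log2 ratio of the members' CPM to the CPM of Kdr-type, venous and arterial cells (1 CPM added to each) for the genes of the NF-kB and cytokine list, with 1 point per mouse and a line at 0. Most genes lay right of 0 in all 6 mice against Kdr-type cells, and *Csf3* and *Vcam1* lay left of 0 against veins.

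Promoters are shown for *Rgcc* and *Il6*, on which the members were chosen, and for *Nfkbia* and *Tnfaip3* of the NF-kB list. A role of NF-kB in the levels of these genes was not tested. The 250 bases before the transcription start of each gene are from RefSeq (GRCm38.p6), written 5′ to 3′ on the gene's strand, with matches to the NF-kB motif, searched on both strands, in capitals. The match in *Rgcc* (chr14:79301636-79301885, minus strand) began 95 bases before the start, that in *Il6* (chr5:30012864-30013113, plus strand) 44 bases, that in *Nfkbia* (chr12:55492648-55492897, minus strand) 29 bases, and those in *Tnfaip3* (chr10:19015411-19015660, minus strand) 125 and 12 bases before it.
Rgcc: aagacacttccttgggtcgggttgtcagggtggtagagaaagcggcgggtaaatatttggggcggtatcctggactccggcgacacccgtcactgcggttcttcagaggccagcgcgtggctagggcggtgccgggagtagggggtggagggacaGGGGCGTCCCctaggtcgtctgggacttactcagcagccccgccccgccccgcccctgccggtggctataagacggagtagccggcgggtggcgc
Il6: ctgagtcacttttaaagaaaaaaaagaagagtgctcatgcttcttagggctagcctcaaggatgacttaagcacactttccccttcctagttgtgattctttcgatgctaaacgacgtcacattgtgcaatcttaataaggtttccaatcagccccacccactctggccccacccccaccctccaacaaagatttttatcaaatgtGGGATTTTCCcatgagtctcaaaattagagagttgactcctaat
Nfkbia: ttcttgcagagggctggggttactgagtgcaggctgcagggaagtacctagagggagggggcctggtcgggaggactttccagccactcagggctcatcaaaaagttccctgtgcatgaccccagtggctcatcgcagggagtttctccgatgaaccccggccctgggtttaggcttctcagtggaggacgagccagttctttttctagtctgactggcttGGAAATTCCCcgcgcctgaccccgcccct
Tnfaip3: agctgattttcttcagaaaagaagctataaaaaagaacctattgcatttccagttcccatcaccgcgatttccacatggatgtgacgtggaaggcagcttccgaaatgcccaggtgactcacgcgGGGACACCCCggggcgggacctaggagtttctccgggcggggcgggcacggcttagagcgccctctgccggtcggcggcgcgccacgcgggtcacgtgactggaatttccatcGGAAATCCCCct
Of all 32851 promoters in the table, 2382 (7.25%) held the motif. Of the 37 promoters of the NF-kB and cytokine list, 17 (45.9%) held it, from 15 of 31 genes. Of 5 other motifs searched on both strands, the GC box GGGCGG was in 62.2% of the list's promoters against 32.7% of all, the TATA box TATAAA in 24.3 against 12.4%, the AP-1 site TGANTCA in 18.9 against 6.75%, the hypoxia response element ACGTG in 16.2 against 16.6% and the CRE TGACGTCA in 0 against 1.55%, so the list's promoters were also richer in 3 motifs other than that of NF-kB. Of 3 genes of the defining set with a promoter in the table, *Rgcc* and *Il6* held it and *Noct* did not. A match describes these letters and is not a measured binding site, and the other start site of *Tnfaip3* had none. *Adamts4*, *Stc1* and *Csf3* were not matched.

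Other groups of genes gave the members a profile that differed by neighbour. Of 13 genes of the interleukin-6 pathway, 11 had at least 50 CPM in either class. Of these 11, 8 were above the Kdr-type level in all 6 mice, where 25.7% of all such genes were, with a median log2 ratio of 0.84. Among the 8 were the receptor chains *Il6st* and *Osmr* and the kinase *Jak1*, and *Lifr* was below that level. A gene that reached 50 CPM in the members alone had to be higher, such as *Bcl3*, which averaged 114 against 36.7 CPM. The share above is therefore a description of these 11 genes only. Of 37 immediate-early and stress genes, 35 had at least 50 CPM in either class in each comparison, and they differed by neighbour. In all 6 mice 17 (48.6%) were above and 6 (17.1%) below Kdr-type cells, where 25.7 and 34.0046% of all genes were. Against veins 22 (62.9%) were above and 2 (5.71%) below, where 30.3 and 26.7% of all genes were. Against arteries 6 (17.1%) were above and 9 (25.7%) below, where 24.7 and 31.5% of all genes were. *Fos*, an AP-1 subunit, was at 901 and 1127 CPM in telogen members, 1301 and 980.0 in anagen and 1444 and 1722 in the KO, below the 1951 to 3194 CPM of Kdr-type cells in each mouse. *Myc* was among the 17 above. In marker-free members, described below, 14 were above and 7 below Kdr-type cells, with *Myc* among the 14.

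Of the genes outside the rule with at least 50 CPM, 118 of 3476 were over 2-fold above Kdr-type cells in every mouse and 40 were over 2-fold below. Besides *Csf3*, genes of 2 other growth factors were among the 10 highest. *Hbegf*, a ligand of the EGF receptor, averaged 1076 CPM in the members and 172 CPM in Kdr-type cells, and *Pdgfa*, which recruits mesenchymal cells, 127 and 19.9 CPM, with a lowest ratio of 5.57 that fell to 3.80 in marker-free members. *Fosl1*, an AP-1 subunit, averaged 106 and 12.8 CPM, and *Uap1*, which makes the sugar donor for glycans and hyaluronan, 491 and 57.3 CPM. Among the 10 lowest were *Thrsp*, a gene of lipid synthesis, at 13.8 against 134 CPM, *Tsc22d3*, a glucocorticoid target, at 62.0 against 342 CPM, *Txnip*, an inhibitor of thioredoxin and glucose uptake, at 267 against 1108 CPM, and *Esm1*, a proteoglycan of sprouting tips, at 0 in both KO mice and 9.83 to 70.5 CPM in the wild-type mice against 9.30 to 226 CPM, lower than Kdr-type cells in each mouse. The stromal genes *Serpinf1*, *Clec3b* and *Col1a1* and the hyaluronan-binding *Tnfaip6* were also among the 10 highest, with lowest ratios of 11.1, 9.04, 8.14 and 4.52, which fell to 3.76, 0, 0.074 and 0.27 once members with other cells' markers were left out. Such cells were not left out of the Kdr-type class, so the lower ratios compare unlike sets of cells.

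Against veins the members were higher in *Cldn5*, the main tight-junction protein of blood vessels (1702 against 86.8 CPM on average), *Dll4*, a Notch ligand (145 against 13.7 CPM), and *Ednrb*, an endothelin receptor (107 to 330 against 6.67 to 53.1 CPM). *Pgf*, a VEGF-family ligand, was at 56.4 and 87.6 CPM in telogen members, 43.0 and 16.4 in anagen and 586 and 995 in the KO, so its level differed widely between groups, against 1.14 to 5.79 CPM in veins. The members were lower than veins in the coagulation factor *F5* (1.71 against 50.3 CPM), the cyclooxygenase *Ptgs1* (25.9 against 278 CPM) and *Lbp*, which binds bacterial lipopolysaccharide (31.7 against 431 CPM). Against arteries they were higher in *Col15a1*, a basement membrane collagen (125 against 5.57 CPM), *Nrp2*, a VEGF co-receptor (205 against 9.71 CPM), *Igfbp7*, a secreted IGF-binding protein (5442 against 495 CPM), and the gap-junction gene *Gja1* (698 against 54.7 CPM). They were lower in the elastic-artery genes *Eln* (141 against 2463 CPM) and *Mgp* (422 against 8766 CPM) and in the arterial connexin *Gja5* (6.73 against 155 CPM). Each of these differences had the same direction in all 6 mice.

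Of 14 tip-cell genes, which mark sprouting ECs, 6 were above the arterial level in all 6 mice and 8 above the venous level, where 7.92 and 9.17% of all genes were. Of the 8 with at least 50 CPM in either class, 4 reached it in the members and not in arteries, and 5 in the members and not in veins. Against Kdr-type cells 3 of the 14 were above and 5 below, where 7.21 and 18.7% of all genes were. Of the 10 with at least 50 CPM in either class 3 were above and 5 below, where 25.7 and 34.0% of all such genes were. The rises were thus at about the share of all genes of that level. Lipid uptake genes were below the Kdr-type level for 11 of 16 genes (18.7% of all genes), with a median of -0.88. Of the 11 with at least 50 CPM in either class 9 were below, where 34.0% of all such genes were. *Fabp4*, a fatty acid carrier, was at 8639 and 8949.6 CPM in telogen members, 7622 and 2720.3 in anagen and 7606 and 6879 in the KO, against 10359 to 27931 CPM in Kdr-type cells. It was lower in the members of every mouse. Of 25 basement membrane genes, 11 were below the Kdr-type level (18.7% of all genes), while 13 were above the venous level (9.17%) and 11 above the arterial level (7.92%). In each comparison 19 had at least 50 CPM in either class. Of these, 10 were below the Kdr-type level (34.0% of all such genes), 11 above the venous (30.3%) and 11 above the arterial level (24.7%). Of the 14 that reached 50 CPM in veins 6 were above, as were 6 of the 14 that reached it in arteries. The shares of all such genes are those given above with the NF-kB list.

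Transcripts of other cell types were present in some members, and unequally between groups. Members with at least 3 detected markers of another type made up 25.4 and 34.9% in the telogen mice, 9.87 and 4.41% in the anagen mice and 3.67 and 5.52% in the KO mice. Such cells were deeper, with a median of 13051 UMIs in telogen mouse 1. The 10 pericyte markers summed to 2038 and 2166 CPM in telogen members, 413 and 277 in anagen and 135 and 387 in the KO, with *Rgs5* the most abundant in telogen at 1058 and 936 CPM. The 9 fibroblast markers summed to 3628 and 5345, 945 and 1628, and 467 and 392 CPM, with *Col3a1* the most abundant in both telogen mice and *Dcn* or *Apod* in the KO mice. The 7 Schwann cell markers summed to 295 and 151, 97.5 and 15.2, and 8.41 and 18.1 CPM. In KO mouse 1 the pericyte markers *Des*, *Kcnj8*, *Abcc9* and *Cspg4* were at 0.

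The 5 erythroid markers, led by *Hbb-bs*, summed to 20.4 and 4631 CPM in telogen, 347 and 493 in anagen and 25.2 and 1977 in the KO, so they differed between mice of 1 group. The 14 immune markers summed to 30.2 to 406 CPM, with *Cd14* the most abundant in all mice but KO mouse 2, where *Cd68* was, the 9 perineurial markers to 99.8 to 245 CPM and the 9 keratinocyte markers to 6.01 to 28.5 CPM. Lists of 12 neutrophil, mast and lymphoid markers and of 9 adipocyte and muscle markers summed to 2.40 to 67.1 and 6.53 to 125 CPM. Leaving out the members with 3 or more markers of another type brought the pericyte sum to 89.9 to 225 CPM, the fibroblast sum to 20.2 to 73.1 CPM, the Schwann sum to 3.78 to 14.2 CPM and the erythroid sum to 2.72 to 29.6 CPM in the 6 mice. The comparisons below are given for all members and, for most results, also for the members left after this step, called marker-free members. Of the 38 NF-kB and cytokine genes, 24 were above and 1 below Kdr-type cells in them, with a median log2 ratio of 1.35. In every comparison of levels between classes only the members were reduced in this way. The Kdr-type, venous and arterial cells were left whole, and 24.2 and 28.4% of Kdr-type cells in the telogen mice carried such markers. In the interactions both sides were reduced.

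**Figure D3:**
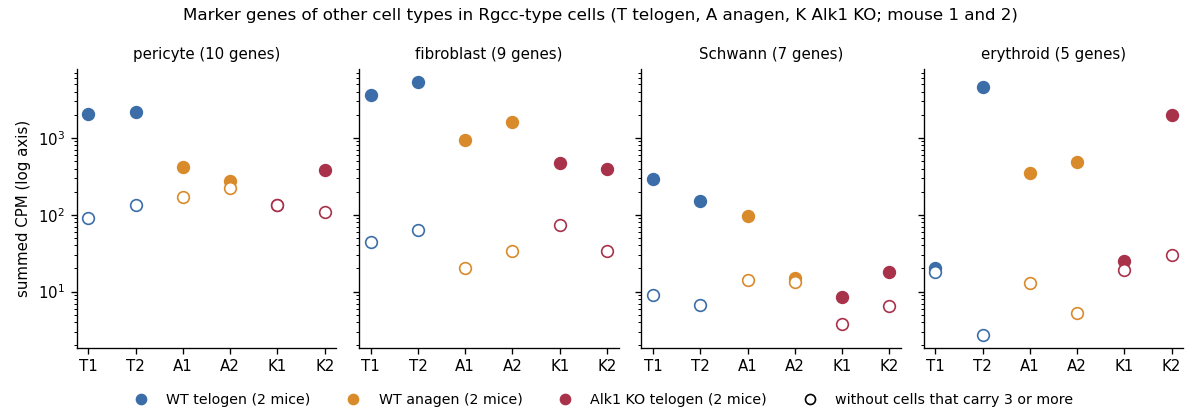
Summed CPM (log axis) of pericyte, fibroblast, Schwann cell and erythroid markers in the members, with 1 filled point per mouse for all members and 1 open point for marker-free members. Pericyte, fibroblast and Schwann markers were highest in the 2 telogen mice and came together across groups in the marker-free members.

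The share of members among *Pecam1*+ *Ptprc*- cells was compared between the rest and growth of hair follicles and between KO and wild-type mice in telogen. It was 17.4 and 15.0% in telogen, 21.6 and 28.4% in anagen and 8.99 and 10.7% in the KO. Both anagen mice lay above and both KO mice below both telogen mice. The mean was 16.2% ± 1.69 (SD, n = 2) in telogen, 25.0% ± 4.86 in anagen, 8.79 percentage points or 1.54-fold higher, and 9.86% ± 1.22 in the KO, a difference of -6.36 points, at 0.61 of the telogen mean. The exact two-sided permutation p was 0.333 for each comparison with n = 2 per group, which is the smallest this design can give.

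Both shares depended on what they were taken of. Among cells given to an artery, vein, Kdr-type or Rgcc-type class, the members were 33.6 and 30.05% in telogen, 33.5 and 40.1% in anagen and 20.6 and 28.0% in the KO, so that telogen and anagen overlapped (exact permutation p = 0.667, n = 2). Among all kept cells they were 6.46 and 3.96%, 16.5 and 21.3%, and 6.36 and 7.41%. On that scale the anagen mean was 3.63-fold the telogen mean, and the KO mean was 1.67 points higher with overlapping mice (exact permutation p = 0.667, n = 2). At 1500 UMIs per cell the difference of the KO from telogen was -2.56 points, and in marker-free cells -4.54 points. The number of non-endothelial cells sorted into each library enters the denominator of all kept cells, and its part was not tested.

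**Figure D4:**
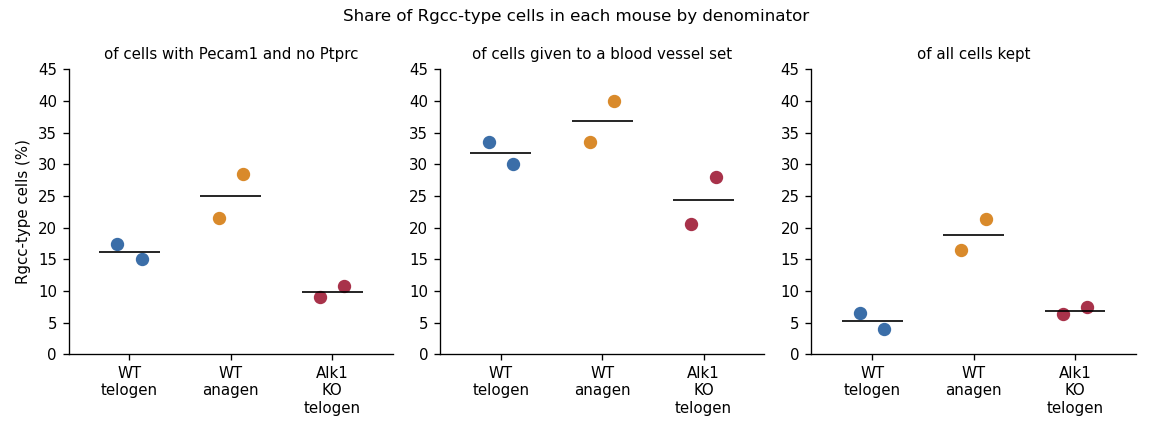
Share of Rgcc-type cells in each mouse, in percent of *Pecam1*+ *Ptprc*- cells, of cells given to an artery, vein or capillary class, and of all kept cells; points are mice and lines are group means. Both anagen mice lay above both telogen mice in the first and last panels, and the KO mice lay below the telogen mice in the first and middle panels but not in the last.

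Gene expression of the members was first compared between anagen and telogen. By edgeR's quasi-likelihood test on counts summed per mouse, 192 of 11108 genes (1.73%) rose and 288 (2.59%) fell when an adjusted p below 0.05 and more than a 1.3-fold difference were required, and the median over all genes tested was a log2 fold change of 0.01. In marker-free members 48 of 10028 genes (0.479%) rose and 9 (0.0897%) fell. Of the 192 genes that rose, 47 also rose in the marker-free members, and of the 288 that fell, 7 did, with 151 no longer testable there. Without TMM scaling the counts were 96 and 470 in all members and 35 and 47 in marker-free members.

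The falls in all members held most of the pericyte and fibroblast lists: 6 of 10 pericyte genes fell, with a median log2 fold change of -2.50, and 5 of 9 fibroblast genes, with a median of -1.66. *Acta2*, smooth muscle actin, was at 365 and 531 CPM in telogen and 32.8 and 20.9 in anagen (log2 fold change -3.89 ± 0.27 SE, adjusted p = 0.0012). In marker-free members it was at 7.12 and 2.72 CPM and 3.42 and 3.81 CPM, with a log2 fold change of -0.42 ± 0.56 (adjusted p = 0.73). *Rgs5*, another pericyte gene, fell with a log2 fold change of -3.43 in all members and was at -0.38 in marker-free members (adjusted p = 0.8). The other-cell markers given above moved with these genes, and the fall of *Acta2* and *Rgs5* was not present at the threshold without the cells that carried them.

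Some of the rises were also called in marker-free members. Ccl21a (ENSMUSG00000094686), a chemokine best known from lymphatic vessels and one of 2 annotated copies, was at 1.11 and 2.05 CPM in telogen and 67.1 and 72.8 in anagen (log2 fold change 5.65 ± 0.31, adjusted p = 0.00058), and in marker-free members 4.93 ± 0.34 (adjusted p = 0.0025). Without the cells most likely to be doublets it was 3.82, with an adjusted p of 0.076. Wild-type lymphatic capillary cells held 14045 to 31747 CPM of Ccl21a, and the marker-free step used no lymphatic markers. In the 2 telogen and 2 anagen mice it was at 92.9, 1.83, 18.5 and 93.1 CPM in Kdr-type cells. In arteries it was at 139, 1.40, 4.92 and 8.11 CPM. The part of lymphatic transcripts in this rise was not tested. *Jam3*, a junctional adhesion molecule, rose from 38.1 and 42.4 to 64.5 and 78.0 CPM (0.99 ± 0.18, adjusted p = 0.026; marker-free 1.34 ± 0.22, adjusted p = 0.048). *Igfbp7* rose from 5514 and 5529 to 9352 and 10335 CPM (1.0002 ± 0.12, adjusted p = 0.0082; marker-free 0.80 ± 0.13, adjusted p = 0.048). In all 3 genes the mice of both groups did not overlap. The same held for 6065 of all 11108 genes tested, among them all 192 that rose and all 288 that fell, so this separation adds nothing to a call.

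*Plvap*, the protein of the diaphragms that close fenestrae and caveolae, was at 1050.5 and 859.8 CPM in telogen and 1771 and 2486 in anagen (1.32 ± 0.19, adjusted p = 0.012). In marker-free members it was 0.91 ± 0.19 with an adjusted p of 0.082, so the call was lost while the direction and the separation of the mice stayed. Of all 10028 genes tested there, 5159 had such a separation. *Clu*, a secreted chaperone, also kept its direction, with 349 and 468 CPM in telogen and 720.1 and 706 in anagen (0.97 ± 0.16, adjusted p = 0.02; marker-free 0.73 ± 0.15, adjusted p = 0.082). *Lrat*, which stores vitamin A as ester, was at 8.29 and 16.4 CPM against 49.8 and 53.7 CPM (2.26 ± 0.28, adjusted p = 0.008; marker-free 1.53 ± 0.33, adjusted p = 0.088). *Dbp*, an output gene of the circadian clock, was at 7.74 and 7.53 against 24.0 and 31.9 CPM (2.03 ± 0.29, adjusted p = 0.012; marker-free 1.89 ± 0.37, adjusted p = 0.071).

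Of 34 NF-kB and cytokine genes tested between the stages, 5 fell, where 2.59% of all genes did, with a list median of -0.08 against 0.01 for all genes. In marker-free members edgeR called 0 of 31 (median -0.12). At an unadjusted p under 0.05, 2 were higher and 9 lower, where 1802 of all 10028 genes passed in either direction. DESeq2 called 1 higher and 4 lower, where it called 129 and 73 of all 10028. *Cxcl2*, a neutrophil chemokine, fell from 417 and 662 to 250.3 and 159.9 CPM (-1.23 ± 0.26, adjusted p = 0.04; marker-free -1.47 ± 0.29, adjusted p = 0.071), and *Nfkb1*, a subunit of NF-kB, from 379 and 357 to 179.5 and 187 CPM (-0.84 ± 0.14, adjusted p = 0.018; marker-free -0.79 ± 0.14, adjusted p = 0.059). *Csf3* was at 1577 and 1399.9 CPM in telogen and 1536 and 2181 in anagen, with overlapping mice (0.49 ± 0.18, adjusted p = 0.17). *Crem*, a transcription factor of the cAMP response, fell from 153 and 162 to 72.4 and 65.7 CPM (-1.02 ± 0.15, adjusted p = 0.012; marker-free -0.85 ± 0.16, adjusted p = 0.064). Of 17 MHC genes, which present peptides to T cells, 3 rose, where 1.73% of all genes did, with a list median of 0.60. In marker-free members edgeR and DESeq2 each called 0 of 17 (median 0.36). At an unadjusted p under 0.05, 6 were higher and 0 lower, where 1802 of all 10028 genes passed in either direction.

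Of 15 genes named in this comparison that were called in all members, 2 held the call under every alternative that could test them. Thinning the summed counts to the smallest total ended 10 calls, marker-free members 9, one fit of all 6 libraries 5, and leaving out telogen mouse 1 or mouse 2 ended 5 and 6. Without telogen mouse 1 the adjusted p was 0.15 for *Igfbp7*, 0.11 for *Jam3*, 0.12 for *Clu* and 0.09 for *Nfkb1*, and without telogen mouse 2 it was 0.069 for *Plvap*, 0.14 for *Cxcl2*, 0.15 for *Igfbp7*, 0.066 for *Jam3* and 0.058 for *Nfkb1*, each with its direction kept.

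A few genes that passed the test in marker-free members were chosen for mention after their values were seen. Among those that fell there, *Cldn5* was at 1810.3 and 2058 CPM in telogen and 926 and 1025 in anagen (-0.87 ± 0.14, adjusted p = 0.047) but did not pass in all members (-0.46 ± 0.14, adjusted p = 0.096), and *Neat1*, a nuclear long non-coding RNA, passed in both (marker-free -1.38 ± 0.23, adjusted p = 0.048; all members -1.20 ± 0.23, adjusted p = 0.03). Of those that rose there, *Tnfsf9*, a ligand of T cell co-stimulation, did not pass in all members (marker-free 1.97 ± 0.31, adjusted p = 0.047; all members 0.62 ± 0.35, adjusted p = 0.35). *Gimap5*, a GTPase gene, and *Tmsb10*, which binds actin monomers, passed in both (marker-free 1.19 and 1.23, adjusted p = 0.04 and 0.02; all members 1.51 and 1.29, adjusted p = 0.0059 and 0.0062). These calls depended on both telogen mice: without telogen mouse 1 no gene passed in marker-free members by edgeR, and without telogen mouse 2, 3 rose and 2 fell, against 1802 genes at an unadjusted p under 0.05 with all 4 mice.

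The response to anagen was then compared with that of the other blood vessel cells, the artery, vein and Kdr-type cells summed, as an interaction with the mouse as a block. Of 12326 genes, 1 (0.00811%) had a higher and 2 (0.0162%) a lower response in the members, none of which was still called without telogen mouse 2, and in marker-free cells 1 (0.00856%) and 3 (0.0257%) of 11681. The single higher gene was *Ccl5*, a T cell chemokine, whose transcripts in the members came mostly from anagen mouse 1, at 56.5 CPM, with 0 in anagen mouse 2. The counts of the interaction by edgeR moved with single mice and with the filter, to 0 and 0 without telogen mouse 2, 108 higher and 287 lower without anagen mouse 1, 78 and 102 without anagen mouse 2, and 76 and 143 with no filter on low counts, so they do not settle for how many genes the response differed.

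The Alk1 KO was examined first at the targeted gene. *Acvrl1* was at 206 and 188 CPM in the members of the wild-type telogen mice and 178 and 142 in the KO mice, without overlap but with a log2 fold change of -0.24 ± 0.20 (adjusted p = 0.41). In marker-free members it was -0.48 ± 0.20 (adjusted p = 0.14). The sources used here do not give the deleted exons, and counts from the 3′ end can stay when exons further upstream are lost, so this level checks neither the deletion nor the labels.

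Many more genes differed than between the stages. In the KO members 899 of 8428 genes (10.7%) rose and 1196 (14.2%) fell, where the median over all genes was a log2 fold change of -0.00088, and in marker-free members 500 of 6992 (7.15%) rose and 598 (8.55%) fell. Of the 899, 470 also rose in marker-free members, and of the 1196, 559 also fell there. Both counts hold the effects of genotype, strain, age and sex together. The telogen mice carried more pericyte, fibroblast and Schwann markers than the KO mice, and all 10 pericyte genes fell, with a median of -3.02, as did 7 of 9 fibroblast genes, with a median of -3.16. Apart from *Id3*, given for its call in all members, the genes below are therefore limited to those with the same direction in marker-free members. The count of each gene list is to be read against the 10.7 and 14.2% of all genes, and in marker-free members against 7.15 and 8.55%.

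**Figure D5:**
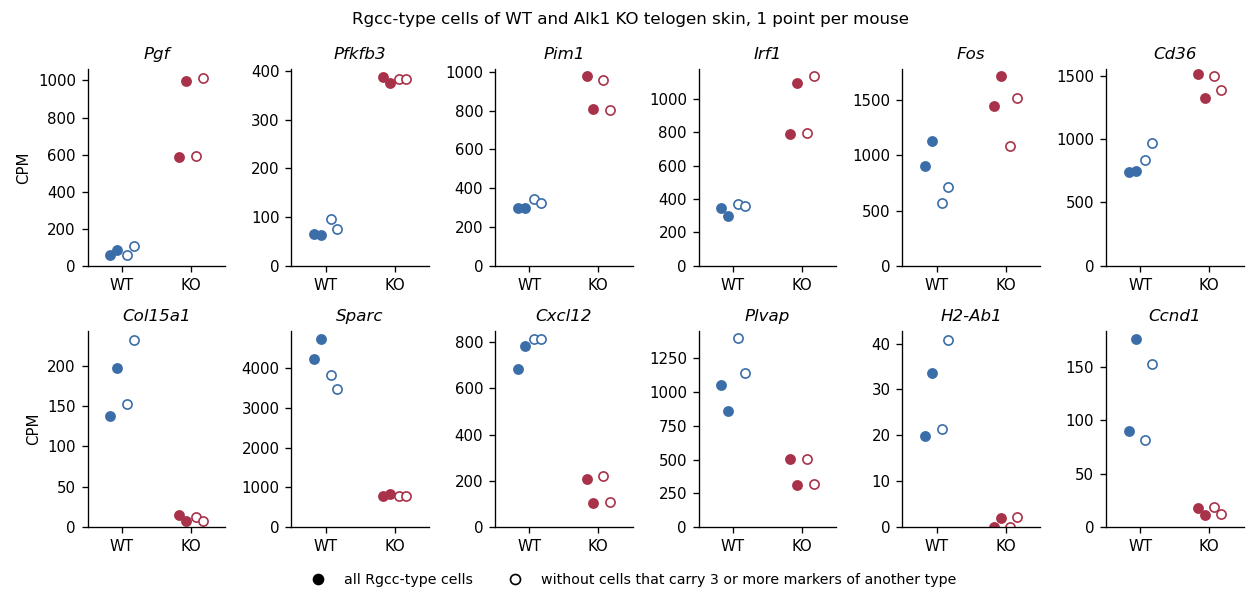
Level of 12 genes in the members of wild-type telogen and Alk1 KO telogen mice, in CPM from 0, with 1 filled point per mouse for all members and 1 open point for marker-free members. *Pgf*, *Pfkfb3*, *Pim1*, *Irf1*, *Fos* and *Cd36* were higher in both KO mice than in both wild-type mice, and *Col15a1*, *Sparc*, *Cxcl12*, *Plvap*, *H2-Ab1* and *Ccnd1* were lower, with filled and open points alike.

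*Pgf* and *Pfkfb3* were among the genes that rose. *Pgf* was at 56.4 and 87.6 CPM in wild-type telogen members and 586 and 995 in the KO (3.51 ± 0.29, adjusted p = 8.1e-05; marker-free 3.32 ± 0.30, adjusted p = 9.3e-05). *Pfkfb3*, which makes the activator of glycolysis in ECs, rose from 66.3 and 62.3 to 387 and 375 CPM (2.62 ± 0.18, adjusted p = 4.6e-05; marker-free 2.19 ± 0.20, adjusted p = 9.8e-05). *Cxcr4*, the receptor of *Cxcl12*, was at 9.39 and 2.05 CPM against 32.4 and 105 CPM (3.55 ± 0.61, adjusted p = 0.0034; marker-free 3.17 ± 0.57, adjusted p = 0.0046). In each of these genes both KO mice lay above both wild-type mice. Among all 8428 genes tested, 5393 did not overlap between the groups, with 898 of the 899 that rose and all 1196 that fell. Such a separation, here and below, therefore adds nothing to a call. Of 26 genes of hypoxia and glycolysis 6 rose and 4 fell (median 0.26), and in marker-free members 5 of 25 rose and 2 fell (median 0.11), shares to be read against the 10.7 and 14.2% of all genes above and, in marker-free members, 7.15 and 8.55%. The glycolytic enzymes *Pgk1* (-0.93 ± 0.28, adjusted p = 0.034; marker-free -1.04 ± 0.26, adjusted p = 0.022) and *Pgam1* (-0.78 ± 0.18, adjusted p = 0.012; marker-free -0.67 ± 0.20, adjusted p = 0.044) were among those that fell.

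*Lcn2*, an iron-carrier binding protein of acute inflammation, rose from 6.08 and 13.0 to 149 and 70.6 CPM (3.61 ± 0.45, adjusted p = 0.00081). *Slc15a2*, a peptide transporter, had no count in either wild-type library and 70.9 and 143 CPM in the KO, at least 120.1-fold higher by a limit of 3 counts over the group, and *AA467197* rose from 8.84 and 12.3 to 97.3 and 148 CPM (3.5998 ± 0.29, adjusted p = 7.7e-05). Both also rose in marker-free members. *Rps27* had 53.6 and 43.8 against 752 and 467 CPM, but it has near-identical copies in the genome, so its counts are uncertain. Strain was not tested for any of these genes, since it cannot be told apart from genotype here.

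Of 31 NF-kB and cytokine genes, 5 rose and 7 fell (median 0.01), where 10.7 and 14.2% of all genes did. In marker-free members 2 of 30 rose and 5 fell (median 0.07), where 7.15 and 8.55% of all genes did, so the rises there were at about the share of all genes. *Irf1*, an interferon-regulated transcription factor, rose from 348 and 296 to 792 and 1099 CPM (1.61 ± 0.20, adjusted p = 0.00083; marker-free 1.44 ± 0.20, adjusted p = 0.0013), and *Nfkbiz*, a nuclear modulator of NF-kB, from 340.4 and 375 to 608 and 511 CPM (0.71 ± 0.19, adjusted p = 0.025). *Vcam1* was at 28.2 and 99.9 CPM against 13.2 and 18.1 CPM (-1.93 ± 0.58, adjusted p = 0.036; marker-free -2.45 ± 0.69, adjusted p = 0.033). *Nfkbia* (0.47 ± 0.20, adjusted p = 0.12) and *Csf3* (-0.04 ± 0.27, adjusted p = 0.93) missed the threshold.

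Of 13 interleukin-6 pathway genes, 5 rose (median 0.65), and 4 rose in marker-free members (median 0.41). *Pim1*, a kinase that STAT3 induces, rose from 296 and 301 to 978 and 808 CPM (1.65 ± 0.20, adjusted p = 0.00064; marker-free 1.45 ± 0.20, adjusted p = 0.0011). *Stat3*, the transcription factor downstream of the receptor, rose from 362 and 339.5 to 610.4 and 585 CPM (0.83 ± 0.18, adjusted p = 0.0092; marker-free 0.68 ± 0.18, adjusted p = 0.029). *Il6* itself defines the class and is given without a test.

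Immediate-early genes rose in part: 11 of 37 rose and 3 fell (median 0.24), and 12 rose and 2 fell in marker-free members (median 0.40). *Fos* was at 901 and 1127 CPM in telogen and 1444 and 1722 in the KO (0.70 ± 0.19, adjusted p = 0.024; marker-free 1.07 ± 0.21, adjusted p = 0.0068), and *Egr1*, a zinc-finger factor, at 799 and 768 against 1483 and 1473 CPM (0.98 ± 0.18, adjusted p = 0.0042; marker-free 1.12 ± 0.19, adjusted p = 0.0031). Of 18 genes of mRNA decay, 6 rose (median 0.56), and 5 of 17 rose in marker-free members. *Zfp36l1*, which directs AU-rich mRNAs to decay, rose from 696 and 707 to 1312 and 1701 CPM (1.16 ± 0.18, adjusted p = 0.0025), and *Tob1*, which recruits the deadenylase, from 112 and 131 to 238 and 277 CPM (1.14 ± 0.18, adjusted p = 0.0023). The 4 genes lay higher in both KO mice than in both wild-type mice.

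Glucocorticoid-responsive genes rose in 7 of 12 cases (median 0.75), 4 of them called in marker-free members (median 0.87). DESeq2 called 5 of the 12 higher in all members, where it called 478 of 8428 genes. In marker-free members it called 1, where it called 250 of 6992. *Fkbp5*, a chaperone of the glucocorticoid receptor, was at 16.0 and 41.8 CPM against 73.3 and 80.6 CPM (1.504 ± 0.36, adjusted p = 0.015; marker-free 1.499 ± 0.40, adjusted p = 0.028), and *Zbtb16*, a zinc-finger repressor, at 8.29 and 33.5 against 46.9 and 89.7 CPM (1.82 ± 0.50, adjusted p = 0.025; marker-free 1.93 ± 0.53, adjusted p = 0.03). The wild-type pair lay far apart in both genes, and the KO pair lay above both of its values.

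Basement membrane genes fell in part: of 24 such genes 9 fell (median -0.40), and 7 of 23 fell in marker-free members (median -0.35). *Col15a1* was at 138 and 197 CPM in wild-type telogen and 15.6 and 8.06 in the KO (-3.78 ± 0.33, adjusted p = 0.00012; marker-free -4.20 ± 0.35, adjusted p = 7.4e-05). *Sparc*, a collagen-binding matrix glycoprotein, fell from 4243 and 4746 to 782 and 824 CPM (-2.43 ± 0.18, adjusted p = 7.7e-05; marker-free -2.16 ± 0.19, adjusted p = 9.3e-05). *Col18a1*, the source of endostatin, fell from 167 and 172 to 22.8 and 34.3 CPM (-2.50 ± 0.22, adjusted p = 0.00013), and *Lamb1*, a laminin chain, from 116 and 115 to 30.04 and 27.2 CPM (-1.96 ± 0.22, adjusted p = 0.00049). *Col4a1*, a type IV collagen chain, fell less, from 1199 and 1362 to 680.1 and 623 CPM (-0.91 ± 0.19, adjusted p = 0.007). All 5 were also called in marker-free members.

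Capillary and lipid-uptake genes did not move together. *Cxcl12*, a chemokine made by capillaries, fell from 682 and 785 to 209 and 106 CPM (-2.15 ± 0.31, adjusted p = 0.0015; marker-free -2.26 ± 0.29, adjusted p = 0.0009), and the water channel *Aqp1* from 568 and 621 to 225 and 199 CPM (-1.43 ± 0.19, adjusted p = 0.0011; marker-free -1.94 ± 0.21, adjusted p = 0.00028). *Cd36* rose from 739 and 749.6 to 1510.5 and 1326 CPM (0.99 ± 0.19, adjusted p = 0.0048; marker-free 0.72 ± 0.19, adjusted p = 0.026), while *Fabp5*, a fatty acid carrier, fell from 314 and 263 to 56.5 and 119 CPM (-1.66 ± 0.27, adjusted p = 0.0029). Of 14 lipid uptake genes 2 rose and 5 fell (median -0.22), and of 13 in marker-free members also 2 and 5 (median -0.35), with rises near the share of all genes in the first. Of 11 capillary genes 1 rose and 3 fell (median -0.22), and 2 rose and 3 fell in marker-free members (median -0.25), where the single rise in all members is near the 10.7% of all genes.

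Of 9 genes of fenestral diaphragms and caveolae 1 rose and 3 fell (median -0.40), and 3 fell in marker-free members (median -0.44). *Plvap* was at 503 and 309 CPM in the KO, below both telogen mice (-1.16 ± 0.26, adjusted p = 0.011; marker-free -1.57 ± 0.25, adjusted p = 0.0025), and *Cavin2*, a coat protein of caveolae, fell from 275 and 337 to 141 and 133 CPM (-1.10 ± 0.19, adjusted p = 0.0033). Tip-cell and VEGF-related genes went both ways. Of 13 tip-cell genes 5 rose and 3 fell (median 0.65), where 10.7 and 14.2% of all genes did. In marker-free members 3 of 12 rose and 3 fell (median 0.38), where 7.15 and 8.55% of all genes did. Besides the rises of *Pgf* and *Cxcr4*, the tip-cell gene *Esm1* was at 12.7 and 12.3 CPM in wild-type telogen and had no count in the KO, at least 7.62-fold lower, the apelin receptor *Aplnr* fell from 27.6 and 58.2 to 2.40 and 6.05 CPM (-3.20 ± 0.57, adjusted p = 0.0041), and *Nrp1*, a VEGF co-receptor, from 253 and 289 to 113 and 140.1 CPM (-1.04 ± 0.18, adjusted p = 0.0037). Of 26 genes of VEGF and angiopoietin signalling 5 rose and 7 fell (median 0.02), and 2 and 6 of 24 in marker-free members (median -0.26), where 7.15 and 8.55% of all genes did, so the rises were near that share.

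Antigen presentation genes fell in 6 of 17 cases with 1 rise (median -0.06), and in 5 of 16 with 1 rise in marker-free members (median -0.27). The class II gene *H2-Ab1* was at 19.9 and 33.5 CPM in telogen and 0 and 2.02 in the KO (-4.43 ± 0.76, adjusted p = 0.0035; marker-free -4.49 ± 0.77, adjusted p = 0.0036), and *Cd74*, the chain that accompanies class II molecules, at 44.8 and 24.0 against 2.40 and 2.02 CPM (-3.87 ± 0.61, adjusted p = 0.0024; marker-free -3.92 ± 0.58, adjusted p = 0.0018). Both are also genes of macrophages and dendritic cells. The immune markers summed to 174 and 406 CPM in telogen members and 255 and 30.2 CPM in KO members and were largely still present in marker-free members. *Cd14* made up 84.0, 244 and 233 CPM of the first 3 sums. Of 5 immune markers tested 3 fell (median -2.25). Of all 14, 1 and 0 were at 0 in the telogen mice and 8 and 6 in the KO mice, where *C1qb*, *C1qc*, *Tyrobp*, Adgre1 and *Csf1r* were at 0 in both. In marker-free members 1 marker was tested, at -0.017. The part of immune transcripts in these falls was not tested.

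Cell-cycle genes fell in 11 of 22 cases with 1 rise (median -1.19), but in 5 of 15 in marker-free members, where the median was 0.17, of opposite sign. *Ccnd1*, the cyclin of the entry into the cycle, fell from 89.5 and 175 to 18.0 and 11.1 CPM (-3.13 ± 0.40, adjusted p = 0.00088; marker-free -2.85 ± 0.39, adjusted p = 0.0011). *Mki67*, a proliferation marker, was at 51.4 and 21.2 against 3.605 and 5.04 CPM (-2.99 ± 0.60, adjusted p = 0.0068; marker-free -3.37 ± 0.76, adjusted p = 0.013). Both KO mice lay below both wild-type mice. Without likely doublets *Mki67* was at -1.25, with an adjusted p of 0.12.

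Of 23 genes of Alk1 and BMP signalling 5 rose and 2 fell (median 0.23), beside 10.7 and 14.2% of all genes, and in marker-free members 2 of 20 rose and 1 fell (median 0.28). *Smad6*, an inhibitory Smad, was at 23.8 and 27.4 CPM in telogen and 56.5 and 60.5 in the KO (1.25 ± 0.25, adjusted p = 0.006; marker-free 0.92 ± 0.28, adjusted p = 0.043), and *Hes1*, a repressor downstream of Notch and BMP, at 69.1 and 82.8 against 151 and 174 CPM (1.16 ± 0.19, adjusted p = 0.0026; marker-free 1.45 ± 0.27, adjusted p = 0.0056). *Inhbb*, an activin subunit, fell from 23.8 and 32.2 to 6.01 and 11.1 CPM (-1.61 ± 0.43, adjusted p = 0.022; marker-free -2.23 ± 0.49, adjusted p = 0.012). *Id3*, the other gene of the list that fell, was at 466 and 561 against 242 and 250 CPM and was not called in marker-free members. *Id1*, a direct BMP target, was at 225 and 306 against 185 and 184 CPM (-0.46 ± 0.20, adjusted p = 0.11), and *Eng*, the co-receptor endoglin, at 424 and 441 against 495 and 432 CPM (0.16 ± 0.19, adjusted p = 0.56).

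Genes of the endoplasmic reticulum stress response fell in 7 of 18 cases and rose in 2 (median -0.35), and in marker-free members 5 fell and 2 rose (median -0.29). *Pdia6*, which forms disulphide bonds, fell from 246 and 246 to 61.3 and 69.6 CPM (-1.85 ± 0.18, adjusted p = 0.00023; marker-free -1.80 ± 0.20, adjusted p = 0.00039), and *Herpud1*, part of the degradation of misfolded proteins, rose from 144 and 130.1 to 263 and 252 CPM (0.97 ± 0.18, adjusted p = 0.0043; marker-free 0.91 ± 0.19, adjusted p = 0.0094). Of the tissue inhibitors of metalloproteases, *Timp3* rose from 1289 and 1318 to 2339.6 and 2381 CPM (0.92 ± 0.17, adjusted p = 0.005; marker-free 1.02 ± 0.18, adjusted p = 0.0047), and *Timp1* fell from 52.5 and 46.5 to 9.61 and 9.07 CPM (-2.35 ± 0.34, adjusted p = 0.0015; marker-free -1.90 ± 0.42, adjusted p = 0.012). *Emcn*, an endothelial sialomucin, rose from 302 and 335 to 532 and 681 CPM (0.99 ± 0.19, adjusted p = 0.0051; marker-free 0.71 ± 0.19, adjusted p = 0.029).

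Of 46 genes named above, *Id3* apart, that were called in the KO members, 23 held the call under every alternative that could test them. Without telogen mouse 1, 17 lost it, among them *Zfp36l1* (adjusted p = 0.067), *Plvap* (0.078), *Pgam1* (0.104), *Cd36* (0.11), *Pgk1* (0.157) and *Fos* (0.42), and without telogen mouse 2, 11 lost it, among them *Herpud1* (0.082), *Pgam1* (0.119), *Stat3* (0.16) and *Vcam1* (0.37). Without KO mouse 2 the call of *Pgk1* was lost (adjusted p = 0.066). None of the 46 changed direction. They had been limited to genes with the same direction in marker-free members, and 0 lost the call there. Of all calls, 470 of 899 rises and 559 of 1196 falls were also called there, so the 46 do not describe all calls. *Pgf*, *Pfkfb3*, *Pim1*, *Irf1*, *Sparc*, *Col15a1*, *Col18a1*, *Cxcl12*, *Aqp1* and *Ccnd1* were among the 23.

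How many genes differed in this response between the members and other vessel cells was not settled, since the count moved with the setting. Against Kdr-type cells alone, 121 of 9422 genes had a higher and 92 a lower response in the members. With no filter on low counts, 120 and 198 of 20082 did. In the interaction with the summed artery, vein and Kdr-type cells, 44 of 10708 genes (0.411%) had a higher and 33 (0.308%) a lower response in the members, and in marker-free cells 28 of 9917 (0.282%) in each direction. Most of these calls were lost when a telogen mouse was left out: without telogen mouse 1, 1 of the 44 and 1 of the 33 were still called, and without telogen mouse 2, 14 and 10 were. *Ccl2*, a monocyte chemokine, had a log2 fold change higher by 3.84 in the members, at -1.87 (marker-free difference 3.97), and *Lox*, which crosslinks collagen, by 1.98 (marker-free 1.85). *Ifitm1*, an interferon-induced membrane protein, and *Itgb3*, an integrin subunit, had lower log2 fold changes in the members, with differences of -2.98 and -2.85 (marker-free -2.88 and -2.74). Of these 4, *Ccl2* was still called without either telogen mouse (adjusted p = 0.0059 without mouse 1 and 0.0036 without mouse 2). The adjusted p without telogen mouse 1 was 0.062 for *Ifitm1*, 0.16 for *Lox* and 0.22 for *Itgb3*, and without telogen mouse 2 it was 0.0096, 0.059 and 0.097. Genes named above lay on both sides of the threshold. Those that passed included *Egr1*, with a difference of 0.84 (adjusted p = 0.04; marker-free 0.85, adjusted p = 0.041). *Fkbp5* also passed, with a difference of -1.28 (adjusted p = 0.036; marker-free -1.60, adjusted p = 0.036). For 5 others the difference missed the threshold, at -0.12 ± 0.26 for *Pgf*, 0.42 ± 0.20 for *Pfkfb3*, -0.22 ± 0.12 for *Sparc*, -0.71 ± 0.33 for *Col15a1* and 0.17 ± 0.20 for *Cxcl12* (SE, adjusted p = 0.9, 0.43, 0.5, 0.4 and 0.78).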

How the data were processed

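The deposited files held unnormalized UMI counts, 1 matrix per mouse. Per the submitters' processing notes, the authors used Cell Ranger 6.0.1 and mm10, and Seurat 4.0 afterwards. Cells with 200 to 5000 genes and under 10% mitochondrial UMIs were kept, with all 32285 genes read. The members, gene lists and comparisons were chosen with earlier results of these data known.

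Counts were summed over the members of each mouse and tested with the quasi-likelihood test of edgeR 4.0.16 (R 4.3.3, filterByExpr, TMM, Benjamini-Hochberg over all genes tested). The 30 set genes, *Pecam1* and *Ptprc* were left out of counts of calls. Levels are CPM of the summed counts, and log2 fold changes are given ± SE. DESeq2 1.42.0, other filters and scalings, and leaving out each mouse were alternatives. With 2 mice a group, p-values measure the spread between these mice only, with the dispersion estimated across genes. Apart from the limit of 3 counts where a group had no count, intervals of counting error were not used. Scrublet's own threshold marked 0.0930 to 1.24% of cells, so the top 5% by score were left out as an alternative.

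In each comparison the genes eligible to be named were the 12 called genes that rose most and the 12 that fell most without overlap between mice, the called and 3 highest genes of each list, 10 genes per direction and class, and 5 per direction for interactions; the text names a part of them. On simulated data, 41 and 42% of 2-fold and 85 and 80% of 4-fold changes were recovered for anagen and the KO, with 9 false calls of 10716 genes and 2 of 8103. The simulated counts were drawn independently for each gene at the fitted dispersion. They held no transcripts of other cell types and no differences of strain or sex, so these rates do not describe the real calls.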

Additional observations from a re-analysis of the deposited data

Results flagged for a closer look

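Given here are 13 genes for which the members' log2 fold change differed from that of the artery, vein and Kdr-type cells summed. The test was edgeR's interaction test with the mouse as a block. The 13 are all genes called in anagen and, of the 44 higher and 33 lower in the KO, the 5 largest in each direction. In anagen against telogen the difference was 8.15 for *Ccl5* (adjusted p = 0.014), -4.35 for *Tnfaip6* (adjusted p = 0.014), a hyaluronan-binding protein, and -2.20 for *Acta2* (adjusted p = 0.048). *Ccl5* was at 0 and 2.05 CPM in telogen members and 56.5 and 0 in anagen members, so 1 mouse held most of its signal. In marker-free cells *Ccl5* was still called (13.85), and *Tnfaip6* and *Acta2* were not. Without telogen mouse 2 none of the 3 was called.

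In the KO against telogen the difference was 6.81 for *Ccl11* (adjusted p = 0.017), 3.84 for *Ccl2* (adjusted p = 0.04), 2.84 for *Gas1* (adjusted p = 0.036), 2.19 for *Dcn* (adjusted p = 0.017) and 1.98 for *Lox* (adjusted p = 0.0083). It was -3.75 for *Cpe* (adjusted p = 0.00078), -3.61 for *Mal* (adjusted p = 0.047), -2.98 for *Ifitm1* (adjusted p = 0.0047), -2.85 for *Itgb3* (adjusted p = 0.023) and -2.56 for *Fxyd6* (adjusted p = 0.0074). In marker-free cells *Ccl2* (3.97), *Lox* (1.85), *Ifitm1* (-2.88) and *Itgb3* (-2.74) were still called, *Ccl11* could not be tested, and the other 5 were not called. Without telogen mouse 1, *Ccl2* (4.77) and *Cpe* (-3.56) were the only genes still called of these 10. The members' own log2 fold change of *Ccl2* was -1.87, so the positive difference lay in a larger fall in the other vessel cells.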

How the results depend on the processing

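With 2 mice a group the exact permutation test of a share cannot go below 0.333, and genes near 10 CPM rested on a few counts in the KO. The marker-free members, every alternative given for them, and leaving out a mouse in the interactions were chosen after seeing the data. For the share, the anagen difference was 0.138 points when the other sets had to be at 0 and 13.7 over all kept cells. The KO difference was -4.54 points in marker-free cells, -3.19 with a lead of 2 genes, 0.140 with the other sets at 0, 1.67 over all kept cells and -2.56 at 1500 UMIs.

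Genes called higher and lower in anagen numbered 120 and 180 with a score of at least 3, 96 and 470 without TMM, 89 and 177 in one fit of all 6 libraries, 17 and 25 with sums thinned to the smallest total, and 48 and 9 in marker-free members; 179 were lower with no filter on low counts. Leaving out a mouse gave 45 to 586 higher (45 without telogen mouse 1, 67 without telogen mouse 2, 397 without anagen mouse 2) and 168 to 736 lower (736 without anagen mouse 1). In marker-free members the counts were 527 and 256 with no filter, 129 and 73 by DESeq2, 47 lower without TMM and, without a mouse, 0 to 501 higher and 0 to 483 lower, with 330 and 184 without anagen mouse 2.

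In the KO, 329 and 423 genes were called with a lead of 2 genes, 478 and 631 by DESeq2 and 500 and 598 in marker-free members. Without a mouse there were 301 to 1182 higher and 599 to 1412 lower (301 and 605 without telogen mouse 1). In marker-free members DESeq2 called 250 and 253, and leaving out a mouse gave 225 to 823 and 299 to 927.

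For the interactions, Kdr-type cells alone gave 11 and 4 in anagen and 121 and 92 in the KO, no filter 76 and 143, and 120 and 198, and marker-free cells 28 higher in the KO. Leaving out a mouse gave 0 to 108 and 0 to 287 in anagen, and 1 to 246 and 1 to 275 in the KO, with 1 and 1 without telogen mouse 1.

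Same-numbered mice did not deviate together (r = 0.022 for anagen and 0.093 for the KO), so the numbers do not pair the mice. With the replicate block, 286 genes were higher and 412 lower in anagen and 694 and 977 in the KO; in marker-free members 162 and 121, and 592 and 692. Members with the other sets at 0 numbered 1 to 13 a mouse, and gene tests were not run on them. The cause of these shifts was not tested.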

Other observations

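Genes grouped by their symbols, chosen after their values were seen, showed 2 patterns in the members that no comparison above described. Of 77 nuclear genes of respiratory chain subunits (symbols starting with Nduf, Uqcr, Cox and Atp5), 18 rose and 1 fell in anagen members, with a median log2 fold change of 0.38, where 1.73 and 2.59% of all genes did. In marker-free members 11 of 75 rose, with a median of 0.49, where 0.479% of all genes did. In KO members 2 of 75 rose and 53 fell, with a median of -0.84, where 10.7 and 14.2% of all genes did, and 2 of 73 rose and 37 fell in marker-free members, with a median of -0.67, where 7.15 and 8.55% of all genes did. The comparisons share the telogen mice. The median mitochondrial share of a member's UMIs moved in the same direction in the KO, at 4.715 and 4.506% in telogen, 4.02 and 3.634% in anagen and 2.505 and 2.272% in the KO, and its part in these falls was not tested.

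Of 74 cytosolic ribosomal protein genes (Rpl and Rps), 27 rose in anagen members (median 0.56) and 14 of 73 in marker-free members (median 0.52), beside 1.73 and 0.479% of all genes. In the KO 23 of 73 rose and 1 fell (median 0.36), and 18 and 1 in marker-free members (median 0.34), beside the shares of all genes just given for the KO. Many of these genes have near-identical copies, so single members are uncertain.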
